A study of Homo sapiens with 4 samples.

Results

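The T arm is the stem and loop near the 3' end of a transfer RNA. Its members here were chosen by number alone: every nucleotide that the deposited numbering sheet places at canonical positions 49 to 65, in each of 48 tRNA references, which gave 816 of 3621 numbered nucleotides. The data come from HCT116, an established human colorectal carcinoma line, in 2 libraries of TRMT1L KO cells and 2 libraries of WT cells. TRMT1L is related to TRMT1, an enzyme that methylates guanosine in tRNA, and the series asks which tRNA modifications depend on it. Native tRNA was read by nanopore (Nano-tRNAseq), and the rates of mismatches, deletions and insertions against the reference were deposited for each nucleotide. Here they are given in percent and, added together, as the summed error, with differences as KO minus WT in percentage points. The labels do not say how the knockout was made, whether it is a single clone, or whether cultures were grown separately for the libraries, so every error bar and p-value covers only the spread between libraries, which may be technical. Read depth is not stated, and the data used here hold no measure of TRMT1L mRNA or protein.

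The T arm folds into a stem, with a 5' strand at 49 to 53 facing a 3' strand at 61 to 65, and a loop at 54 to 60 that docks onto the D loop to hold the elbow of the molecule. In cytosolic tRNAs of human cells, NSUN2 makes 5-methylcytidine around 49 and 50, TRMT2A makes ribothymidine at 54, TRUB1 and PUS10 make pseudouridine at 55, and the TRMT6 and TRMT61A complex makes 1-methyladenosine at 58. A modified nucleotide can change the pore current so that the base caller errs there or at a neighbouring base. An error rate is therefore an indirect reading that names no modification and gives no occupancy, and a loss of modification can lower or raise it. The reference bases of the 48 tRNAs are not in the tables used here, so no sequence is printed and positions were not split by base.

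The numbering was checked first, because 2 references did not line up with the others. For each reference, the WT mismatch rates at the 17 positions were set against the median of the other 47 references, as numbered and moved by 1 position either way. In 46 references the match was closest as numbered, with a median Pearson r of 0.880 and a lowest r of 0.612, in iMet-CAT-1-6. In Asn-GTT-2-1 the r was 0.150 as numbered and 0.880 when its values were read 1 position later. In Asp-GTC-2-6 it was -0.161 as numbered and 0.547 when read 1 position earlier. The KO libraries gave the same picture, at 0.121 and 0.871 for Asn-GTT-2-1 and -0.171 and 0.537 for Asp-GTC-2-6. The adaptor that follows the 3' end, which is the same in every molecule, was shifted in the same references. Over its first 10 nucleotides, compared in 39 references, 37 matched best as numbered with r of at least 0.833. Asn-GTT-2-1 had r of 0.668 as numbered against 0.989 read 1 later, and Asp-GTC-2-6 had 0.546 against 0.990 read 1 earlier. These r describe profiles that share libraries and a molecule, and carry no test. Values are given below under the deposited numbers, and the levels, kinds of error and changes by position are also given without these references.

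**Figure D1:**
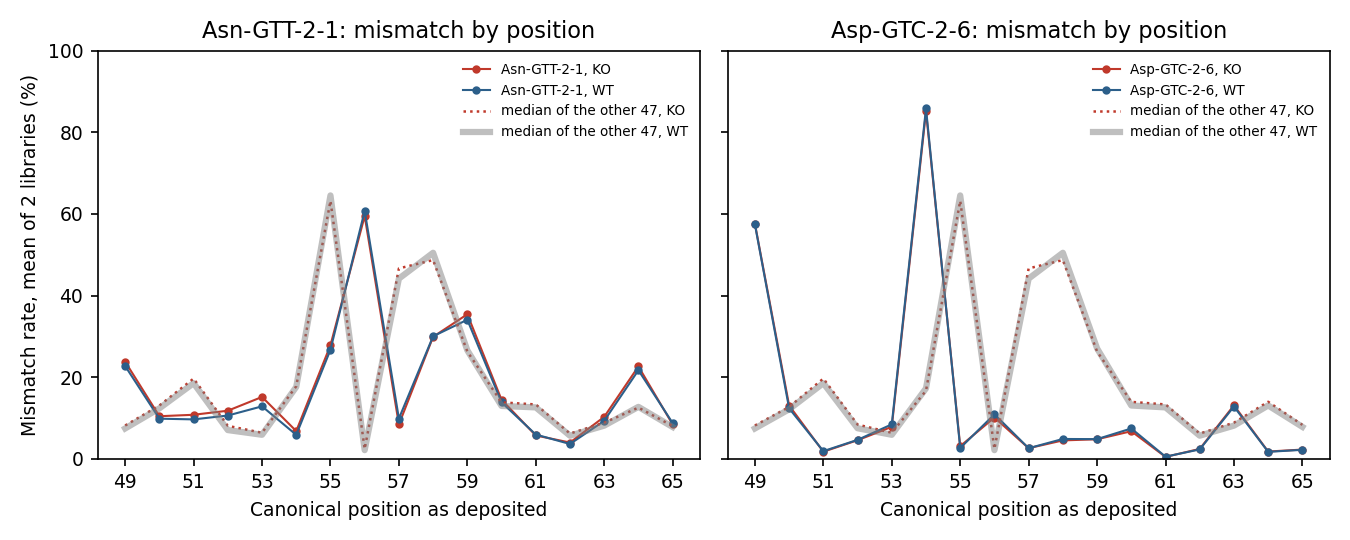
Mismatch rate (%, mean of 2 libraries) at each T-arm position as deposited, for Asn-GTT-2-1 (left panel) and Asp-GTC-2-6 (right panel), in KO (red) and WT (blue), with the median of the other 47 references in KO (red dots) and WT (grey). The median peaks at 55, whereas Asn-GTT-2-1 peaks at 56 and Asp-GTC-2-6 at 54.

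The median error was higher in the loop than in either strand of the stem, though not at every loop position. Over the 240 sites at 49, 50, 54, 55 and 58, the median summed error was 50.6% in KO and 50.2% in WT, against 20.3% in KO and 18.8% in WT over the 576 other T-arm sites. The named positions were not alike, however: the loop positions 54, 55 and 58 were high and the stem positions 49 and 50 were low. By part of the arm, the median in WT was 51.5% in the loop, 17.4% in the 5' strand and 14.9% in the 3' strand. Outside the T arm the median over 2805 sites was 26.7% in KO and 25.5% in WT.

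**Figure D2:**
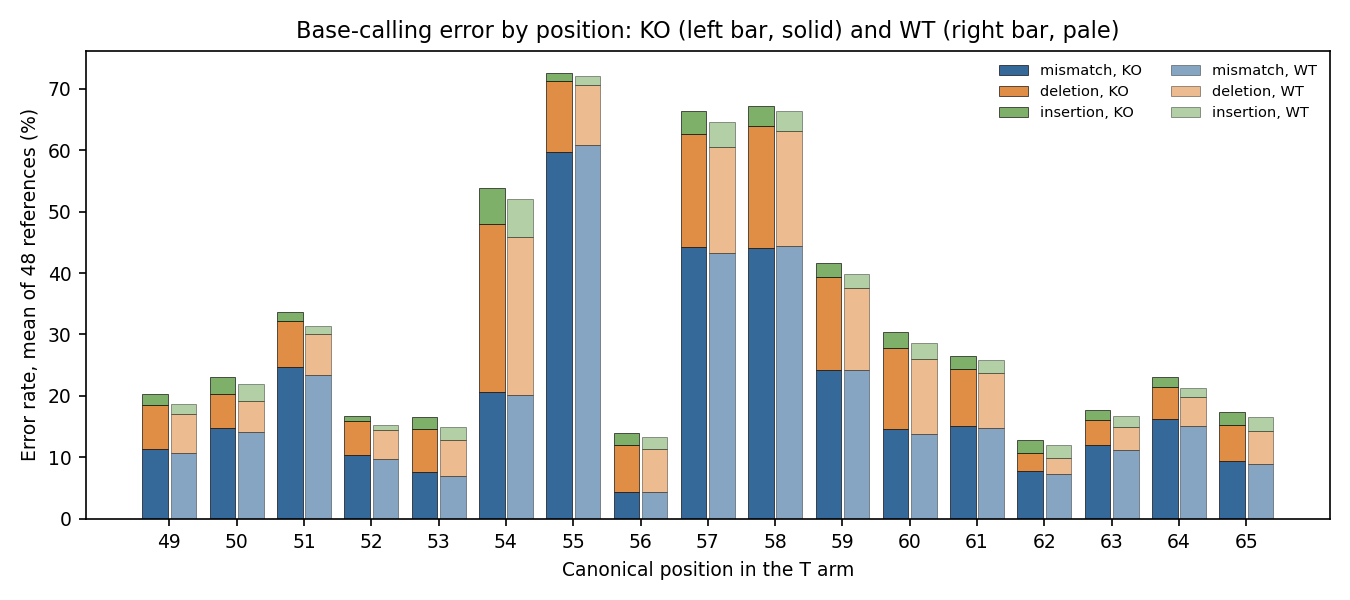
Mean error rate over 48 references (%, 2 libraries averaged) at each T-arm position, stacked by kind of error, with KO as the left, solid bar and WT as the right, pale bar. Positions 54, 55, 57 and 58 stand above the rest, with deletions (orange) the larger share at 54 and mismatches (blue) at 55, 57 and 58.

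Position 55, the usual site of pseudouridine, had the highest level. Its median summed error over 48 references was 74.3% and 73.1% in the KO libraries and 72.2% and 74.9% in the WT libraries. Position 58, the usual site of 1-methyladenosine, followed with 71.8% and 70.4% in KO and 68.85% and 74.3% in WT. Position 57, a conserved purine between them, came next with 69.8% and 69.2% in KO and 66.8% and 68.78% in WT. Each of the 4 libraries ordered them 55, 58, 57. The WT medians of 55 and 58 overlapped across libraries, and within a library the step was as small as 74.9% against 74.3% in WT replicate 2. Every WT library of 58 lay above those of 57, by as little as the step between 68.78% and 68.85%. No test was made of this order. Position 54, the usual site of ribothymidine, had 51.4% and 53.9% in KO and 51.7% and 52.7% in WT, below all libraries of 57 and above all of 59, which had 39.7% and 38.8% in KO and 36.7% and 38.7% in WT. Error exceeded 50% in WT in 46 of 48 references at 55, 41 at 58, 40 at 57, 29 at 54 and 13 at 59. The most error-prone T-arm position of a reference in WT was 55 in 19 references, 58 in 14, 57 in 12, 59 in 2 and 54 in 1. Position 57 thus came close to 58 and stood well above 54, although it is not among the usual sites of modification named here.

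Positions 49 and 50, the usual sites of 5-methylcytidine, lay within the range of the other stem positions, whose WT medians ran from 10.1% at 62 to 28.6% at 51. The median at 49 was 14.1% and 13.7% in KO and 13.03% and 13.1% in WT, and at 50 it was 20.5% and 21.3% in KO and 19.01% and 20.02% in WT. At both positions only 2 of 48 references exceeded 50% in WT. Their stem neighbour 51 was higher than either, with a median of 29.9% in KO and 28.6% in WT, and 8 references exceeded 50% there. These were 3 proline, 2 glutamate and 2 glycine references and Cys-GCA-3-1, with WT summed errors of 55.4% (Glu-TTC-1-1) to 72.2% (Cys-GCA-3-1), and mismatch was the leading kind in each. Position 56, the conserved cytidine that pairs with the D loop, had the lowest level in the loop, with a median of 11.2% in KO and 10.4% in WT, and stood between the high positions 55 and 57.

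Without Asn-GTT-2-1 and Asp-GTC-2-6, the WT median was 12.8% at 49, 19.7% at 50, 52.7% at 54, 73.6% at 55, 71.9% at 58 and 18.96% at the other T-arm positions, so these were ordered as with all references. Over the remaining 46 the WT median was 28.9% at 51, 10.2% at 56, 68.2% at 57 and 38.1% at 59. Error exceeded 50% in 45 references at 55, 40 at 58, 40 at 57, 28 at 54, 12 at 59, 2 at 50 and 1 at 49, and the most error-prone position was 55 in 19, 58 in 14, 57 in 12 and 59 in 1.

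The leading kind of error, as aligned, differed between position 54 and its neighbours. At 54 deletion led in 35 references, mismatch in 12 and insertion in 1, in WT, with medians of 26.1% for deletion, 17.4% for mismatch and 5.41% for insertion. At 55 mismatch led in 46 of 48 references, with a median of 64.5%, against 7.28% for deletion and 1.08% for insertion. At 58 mismatch led in 43, with medians of 50.2%, 18.3% and 2.81% in the same order, and 57 was close to it with mismatch leading in 44 and medians of 43.8%, 16.5% and 2.81%. The stem positions 49 and 50 were led by mismatch in 38 references each, with mismatch medians of 7.49% and 12.3% and deletion medians of 3.68% and 3.72%. Over the other T-arm sites the medians in WT were 10.5% for mismatch, 5.89% for deletion and 1.44% for insertion. Deletion also led at 53 in 25 references and at 56 in 36, at low levels of 5.68% and 5.72%. Without the 2 references out of register, deletion led at 54 in 35 of 46, and mismatch at 55 in 45, at 58 in 42 and at 57 in 43. Where identical bases follow each other, a missing base cannot be placed among them. The nucleotides usual at 54 and 55, ribothymidine and pseudouridine, are both forms of uridine, so deletions there may not be told apart. How they were placed between 54 and 55 was not tested, and other such stretches could not be located here.

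**Figure D3:**
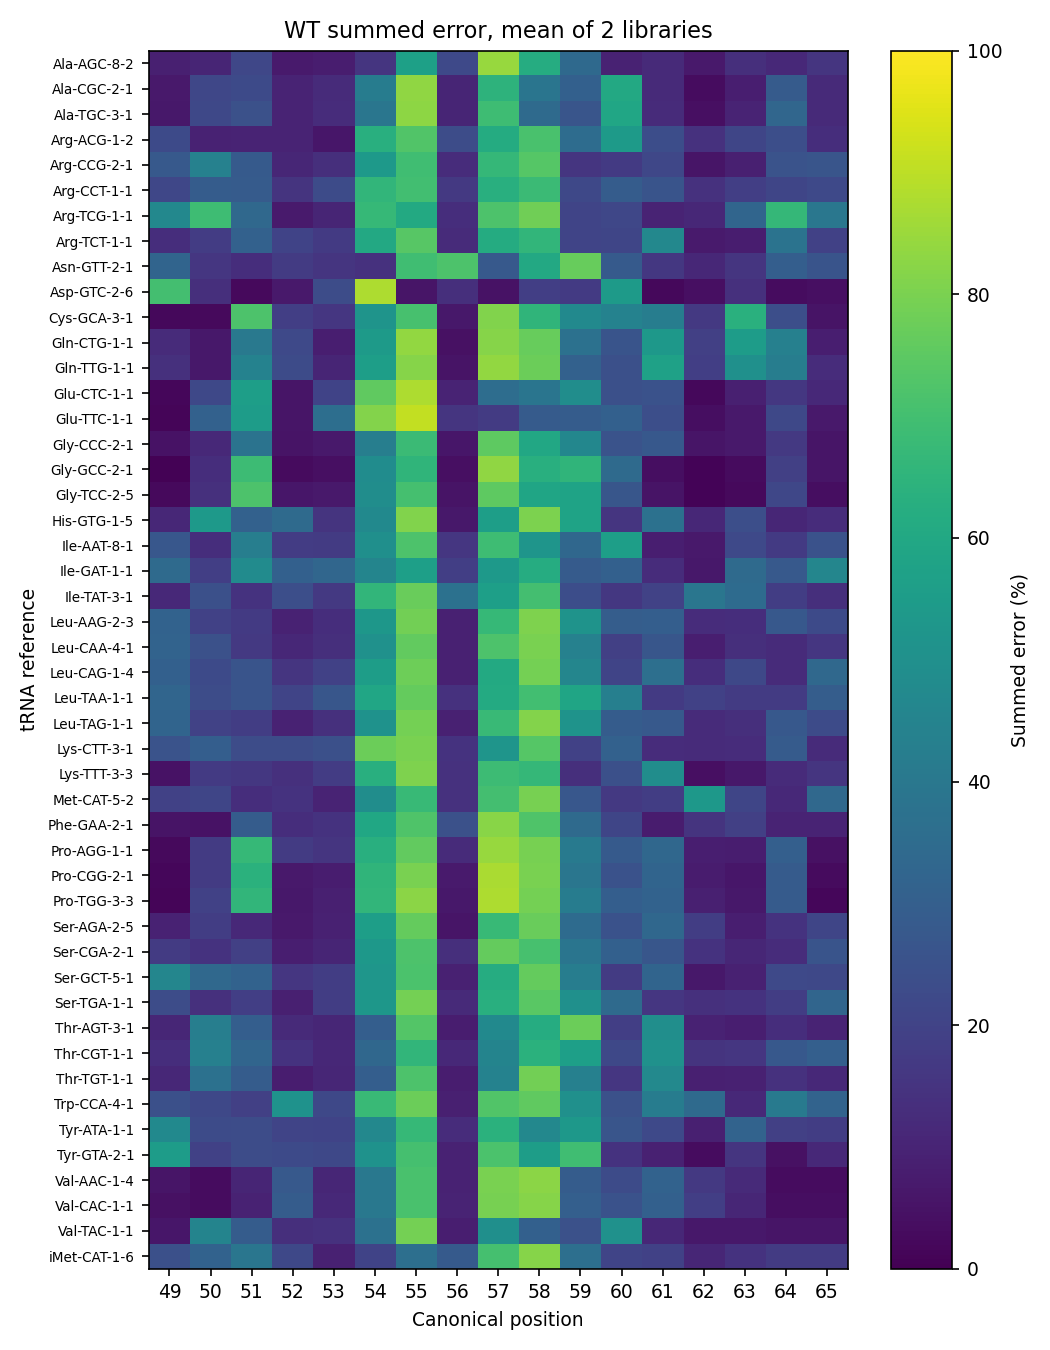
Summed error in WT (colour, %, mean of 2 libraries) for the 48 tRNA references (rows) at the 17 T-arm positions (columns). Columns 55, 57 and 58 are bright in most rows, column 56 is dark in most rows but bright in Asn-GTT-2-1, and Asp-GTC-2-6 is dark at 55 and bright at 49 and 54.

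Some references departed from the common level. At 55 the lowest was Asp-GTC-2-6, with 5.64% and 7.38% in KO and 6.12% and 5.33% in WT, and its highest loop position was 54, with 88.02% and 86.4% in KO and 86.6% and 89.01% in WT, nearly all of it mismatch (85.8% in WT). This is one of the references whose profile matched better when moved by 1 position. The next lowest at 55 was iMet-CAT-1-6, the initiator methionine tRNA, with 33.3% and 36.2% in KO and 36.5% and 36.2% in WT. Eukaryotic initiator tRNAs are known to lack the ribothymidine and pseudouridine that elongator tRNAs carry at 54 and 55. At 54 the same reference had 21.6% and 23.5% in KO and 19.9% and 20.6% in WT, among the 3 lowest of 48. Its position 58 was among the 3 highest, with 83.06% and 80.3% in KO and 81.8% and 82.3% in WT. The initiator tRNA was thus low at 54 and 55 and high at 58 in all 4 libraries.

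Besides the initiator, 2 more references were low at 54. Asn-GTT-2-1 had 16.9% and 14.4% in KO and 12.9% and 15.5% in WT at 54, and at 55 its WT error of 69.2% was led by deletion (39.9%), while 56 held 72.0% led by mismatch (60.8%), the pattern that other references show at 54 and 55. Ala-AGC-8-2 had 16.1% and 17.1% in KO and 14.8% and 16.3% in WT at 54 and was in register with the other references. Insertion was the leading kind at its position 54, at 8.51% in WT. Its position 57, with 84.7% in WT, was among the 5 highest sites outside the named positions, together with 57 of Pro-TGG-3-3 (87.5%), Pro-CGG-2-1 (87.5%), Pro-AGG-1-1 (84.8%) and Gln-TTG-1-1 (83.6%). These 5 sites were all at position 57.

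The glutamate references were the highest at 55 and among the lowest at 57 and 58. Glu-TTC-1-1 had 91.5% and 90.7% in KO and 90.6% and 90.97% in WT at 55, and Glu-CTC-1-1 had 87.98% and 88.4% in KO and 87.9% and 87.2% in WT. Gln-CTG-1-1 followed, with 83.9% in WT. At 54 Glu-TTC-1-1 was second only to Asp-GTC-2-6, with 82.04% and 81.6% in KO and 80.5% and 82.1% in WT, and Lys-CTT-3-1 followed with 77.6% in WT. The glutamate references had the highest insertion rates at 54, with WT means of 19.1% in Glu-TTC-1-1 and 19.04% in Glu-CTC-1-1. The insertion rate at 54 of Glu-TTC-1-1 was 24.6% and 23.4% in KO and 16.1% and 22.1% in WT. This difference of 4.94 points was the largest increase in insertion in the T arm (limma adjusted p = 0.863). Most references at 54 moved the other way, as given below. At 58 Glu-TTC-1-1 was at the other end of the range, with 24.4% and 26.9% in KO and 30.5% and 27.3% in WT. At 57 the WT summed error was 17.4% in Glu-TTC-1-1 and 35.9% in Glu-CTC-1-1, against a median of 67.5%. Glu-CTC-1-1 varied more between libraries at 58 than most sites, with 43.2% and 33.6% in KO and 30.98% and 46.8% in WT.

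References of a single amino acid differed from each other at 50 and 58, and not only there. In WT the widest span within an amino acid was 36.5 points at 49 (serine), 26.6 at 54 (alanine), 26.4 at 55 (alanine) and 30.2 at 57 (valine). At 58 Val-AAC-1-4 had the highest level of all, 83.4% and 83.6% in KO and 80.6% and 84.4% in WT, and Val-CAC-1-1 had 82.4% and 82.3% in KO and 81.02% and 82.3% in WT. Val-TAC-1-1 was among the 3 lowest, with 38.2% and 38.7% in KO and 28.4% and 33.1% in WT. The same split ran the other way at 50, where Val-TAC-1-1 had 46.2% and 44.3% in KO and 41.9% and 48.4% in WT, against WT means of 3.21% in Val-AAC-1-4 and 3.15% in Val-CAC-1-1. The valine references thus spanned 51.7 points at 58 and 41.98 points at 50, far more than the spread between libraries. Proline references, by contrast, lay between 79.2% and 79.9% in WT at 58. At 50 the highest reference was Arg-TCG-1-1, with 69.3% and 68.9% in KO and 68.3% and 69.3% in WT, while Arg-ACG-1-2 had 9.41% in WT. His-GTG-1-5 was the only other reference above 50% there, with 53.9% and 55.2% in KO and 54.4% and 53.5% in WT. The lowest at 50 was Cys-GCA-3-1, with 2.71% in WT.

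At 49 the highest were Asp-GTC-2-6 with 71.3% and 71.3% in KO and 66.7% and 73.5% in WT, and the tyrosine references. Tyr-GTA-2-1 had 53.7% and 54.9% in KO and 53.6% and 57.3% in WT, and Tyr-ATA-1-1 had 48.5% and 48.5% in KO and 46.2% and 48.8% in WT. Tyrosine tRNA is the one to which the series title assigns the TRMT1L product, at 27. Its error at 49 overlapped between the genotypes in both references. Over the whole T arm the mean of both was higher in KO, as it was in 47 of 48 references. Tyr-GTA-2-1 had 32.9% and 33.4% in KO and 30.7% and 31.6% in WT, with 12 of 17 positions higher without overlap. Tyr-ATA-1-1 had 34.3% and 34.9% in KO and 31.2% and 33.4% in WT, with 8 such positions. The lowest at 49 were Gly-GCC-2-1 with 1.01% in KO and 0.638% in WT, Glu-TTC-1-1 with 1.59% in KO and 1.19% in WT, and Pro-TGG-3-3 with 1.44% in KO and 1.27% in WT.

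Among the other positions, 60 exceeded 50% in WT in 6 references: Ala-CGC-2-1, Ala-TGC-3-1, Arg-ACG-1-2, Asp-GTC-2-6, Ile-AAT-8-1 and Val-TAC-1-1, singled out after their values were seen. Their WT error at 58 had a median of 36.7% (18.4% to 71.3%), against a median of 73.6% (28.9% to 82.5%) in the other 42. Asp-GTC-2-6 is one of the references out of register, and without it their values at 58 ran from 30.8% to 71.3%. In the stem, Arg-TCG-1-1 was the highest reference both at 50 and at 64 (66.7% in WT), which face each other, and Cys-GCA-3-1 both at 51 (72.2%) and at 63 (63.3%), which also face each other. Across all 48 references such facing positions were not closely related: r of the WT summed error ran from -0.146 to 0.480 over the 5 facing pairs, with a median of 0.227, and from -0.347 to 0.345 over the 20 other combinations of the strands, with a median of 0.0498. Without the 2 references out of register they ran from -0.105 to 0.637 and from -0.395 to 0.346, with medians of 0.222 and 0.0496. These r are descriptions over references that share the same libraries.

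The second comparison was KO against WT. The mean summed error over the T arm was 32.6% and 32.5% in the KO libraries and 30.96% and 31.6% in the WT libraries, a difference of 1.27 points, with both KO libraries above both WT libraries. An exact two-sided permutation test over the 4 libraries gave p = 0.333, the lowest p that 4 libraries split evenly allow. Deletions made up most of the difference, with 10.16% and 10.25% in KO and 8.995% and 9.63% in WT, a difference of 0.893 points (exact p = 0.333). Mismatches differed by 0.459 points (exact p = 0.333) and insertions by -0.0793 points (exact p = 0.667).

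The rest of the tRNA moved the same way. Outside the T arm the summed error averaged 31.4% and 31.6% in KO and 30.9% and 30.7% in WT. The T arm minus the rest, taken within each library, was 1.17 and 0.863 points in KO and 0.0411 and 0.871 points in WT, and KO replicate 2 lay just below WT replicate 2. The T arm thus differed from the rest by 0.558 points more in KO than in WT (exact p = 0.667), and by 0.143 points without WT replicate 1. For deletions alone the same difference was 0.411 points, without overlap (exact p = 0.333). In the adaptor at the 3' end the summed error was 22.7% and 24.9% in KO and 26.5% and 23.02% in WT, with no common direction.

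By position, both KO libraries lay above both WT libraries at 49, 50, 54 and the other T-arm positions, and the genotypes overlapped at 55 and 58. At 54 the mean over references was 52.96% and 54.7% in KO and 51.3% and 52.9% in WT, a difference of 1.74 points, which ranged from 0.870 without KO replicate 2 to 2.62 without KO replicate 1. Between medians over references it was 0.434 points and the libraries overlapped (exact p of 1). At 49 it was 20.5% and 20.01% in KO and 18.8% and 18.7% in WT, a difference of 1.52 points, or 0.821 points between medians. At 50 it was 23.2% and 22.8% in KO and 21.5% and 22.5% in WT, a difference of 1.03 points, or 0.540 points without WT replicate 1. The other T-arm positions differed by 1.34 points. Each of these had an exact p = 0.333 and a Benjamini-Hochberg value of 0.5 over the 6 comparisons. At 55 the difference was 0.444 points, and -0.261 without WT replicate 1. At 58 it was 0.781 points, with 67.5% and 66.8% in KO and 64.2% and 68.6% in WT, and -1.41 without WT replicate 1. Both had an exact p of 1, and at 58 the lowest and the highest value were those of the WT libraries. Without Asn-GTT-2-1 and Asp-GTC-2-6 the differences were 1.53 at 49, 1.01 at 50, 1.80 at 54, 0.385 at 55, 0.721 at 58 and 1.38 at the other positions.

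At 55 mismatches were lower and deletions higher in KO, while the summed error overlapped between the genotypes. Mismatches averaged 59.9% and 59.6% in KO and 60.6% and 60.9% in WT, a difference of -1.01 points (exact p = 0.333), and were lower in KO in 32 of 48 references. Deletions averaged 11.3% and 11.6% in KO and 9.18% and 10.4% in WT, a difference of 1.65 points (exact p = 0.333), and were higher in KO in 45 of 48. Neither kind overlapped between the genotypes. At 58 mismatches were lower in KO in 30 references and deletions higher in 35, but both overlapped between libraries. At 54 deletions differed by 1.64 points and were higher in KO in 37 references, while insertions were lower in 32. Such counts are to be read against all 816 T-arm sites, where deletions were higher in KO at 83.5%, and against 71.02% outside. At 49 deletions were higher in 42 references and at 50 in 41, near the share of the arm. The count of 45 at 55 was also reached at 53 and at 59, so it was not particular to 55. Mismatches were higher in KO at 67.2% of the T-arm sites and 62.3% outside, and insertions at 44.2% and 49.98%. Without the 2 references out of register, at 55 mismatches differed by -1.09 points (lower in 32 of 46) and deletions by 1.66 points (higher in 43), and at 54 deletions differed by 1.69 points (higher in 35).

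**Figure D4:**
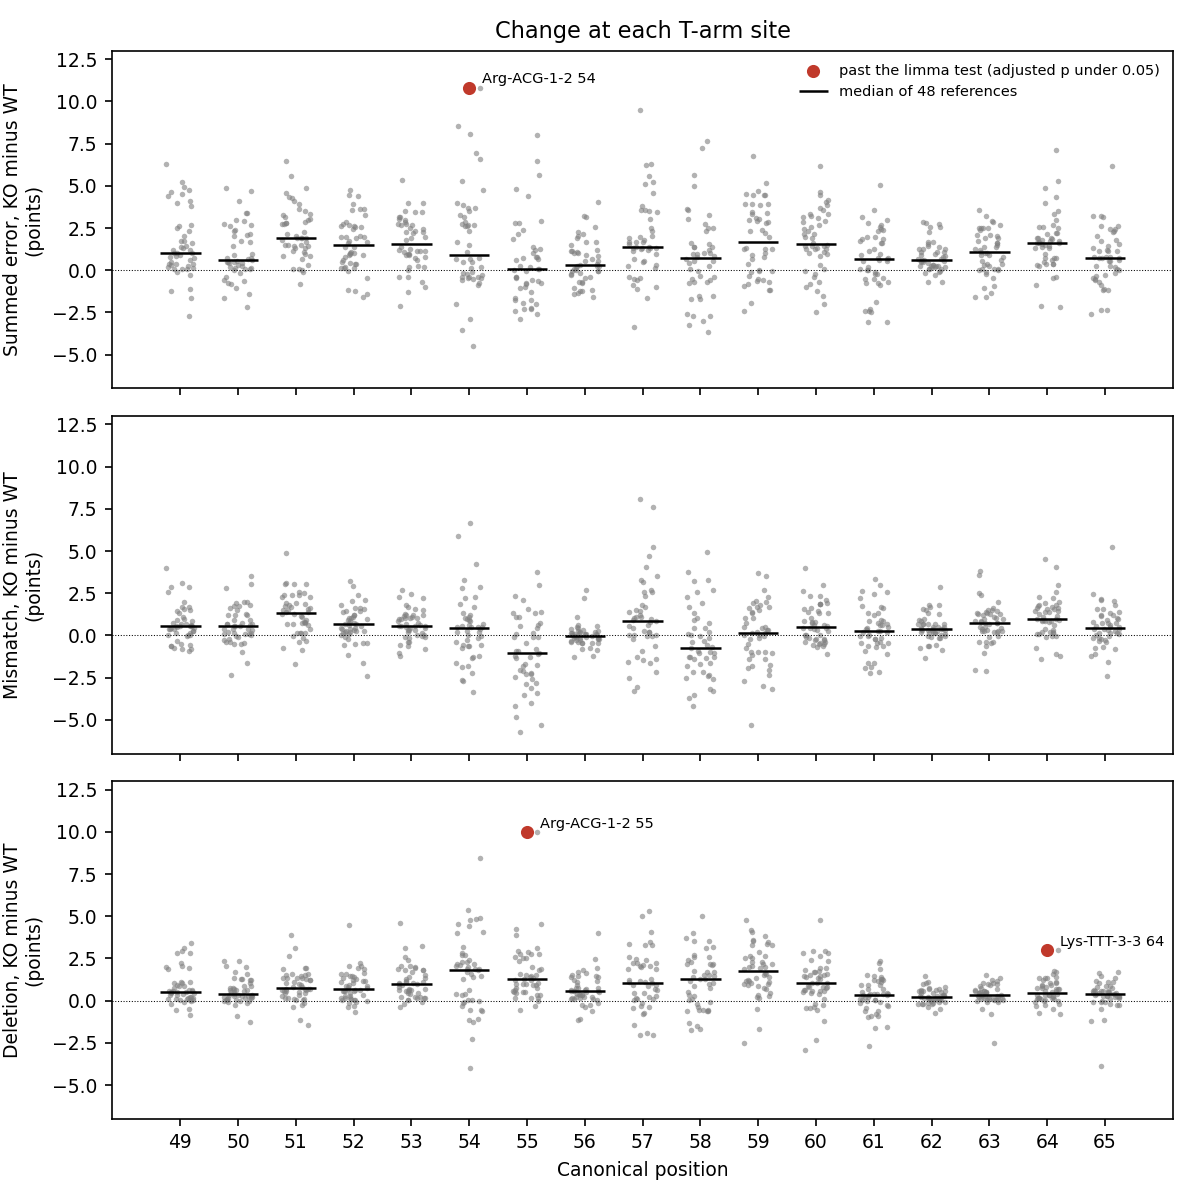
KO minus WT (percentage points) at each of 816 T-arm sites, by position, for summed error (top), mismatch (middle) and deletion (bottom). Grey points are references, black bars are medians of 48 references, and red points passed the limma test at an adjusted p under 0.05. The median of mismatch lies below 0 at 55, 56 and 58, whereas that of deletion lies above 0 at all 17 positions.

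Few single sites passed a test. In the limma fit over all 3621 positions, 0.608% were called in either direction, 0.221% higher and 0.387% lower in KO. Of the 816 T-arm sites 1 was higher and 0 were lower, with 79 sites at an unadjusted p under 0.05 (9.68%), all of them higher in KO, against 9.27% outside the T arm, where 7.13% of sites were higher. For mismatch, limma called 0 of 816 sites, against 0.552% of all positions (0.221% higher and 0.331% lower), and 39 had an unadjusted p under 0.05 (4.78%), 31 higher and 8 lower, against 7.63% outside. For deletion it called 2, both higher, against 1.19% in either direction, 0.58% higher and 0.608% lower over all positions, and 105 had an unadjusted p under 0.05 (12.9%), all higher, against 10.98% outside, where 9.09% were higher. For insertion it called 0, against 0.0829% of all positions (0.0552% higher and 0.0276% lower), and 42 had an unadjusted p under 0.05 (5.15%), against 5.85% outside. The counts rested on single libraries: leaving out 1 library gave 1 to 11 sites higher in the summed error, with 11 without WT replicate 2 and 2 each without WT replicate 1 and KO replicate 2, and 0 to 3 sites higher in deletion, with 0 without KO replicate 1 or WT replicate 1. In such a fit the lone library is assumed to vary like the other genotype.

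Counts of direction covered more sites. The mean summed error was higher in KO at 623 of 816 T-arm sites (76.3%) and at 68.2% of the sites outside. Both KO libraries exceeded both WT libraries at 319 T-arm sites (39.1%), against 30.9% of all positions, and lay below both at 37 (4.53%), against 7.93%. For deletions KO was higher without overlap at 376 sites (46.1%), against 35.5%, and lower at 24, against 7.01%. For mismatches the counts were 230 higher, against 25.4%, and 83 lower, against 10.9%, and for insertions 112 higher, against 16%, and 171 lower, against 17.2%. Sites of a library share its overall error rate, so these counts are not independent. By reference, the T-arm mean was higher in KO in 47 of 48, in 38 of them without overlap. References share the overall error of a library, and the same count was not made outside the T arm. It therefore cannot be read as particular to the arm. The exception was Leu-TAG-1-1, at -0.0866 points, with 33.27% and 33.21% in KO and 33.29% and 33.36% in WT. Its libraries did not overlap, but only by a small step, and 10 of its 17 positions were higher in KO. The largest were Arg-CCG-2-1 (2.51 points), Val-TAC-1-1 (2.43 points) and Ala-CGC-2-1 (2.43 points).

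The sites past the test lay in an arginine and a lysine reference. Arg-ACG-1-2 at 54 had a summed error of 73.5% and 74.4% in KO and 61.5% and 64.7% in WT. The genotypes did not overlap and differed by 10.8 points (limma adjusted p = 0.0442), of which 8.43 points were deletion and 2.87 points mismatch, neither past the test alone. The call was lost when each library was centred on its median (9.55 points, limma adjusted p = 0.177) and without KO replicate 2 (10.3 points, limma adjusted p = 0.0601). The next position of the same tRNA, 55, had deletions of 45.99% and 43.9% in KO and 33.4% and 36.5% in WT, higher in KO by 9.98 points (limma adjusted p = 0.0297). Its mismatches were 34.6% and 35.5% in KO and 36.1% and 37.4% in WT, lower by 1.73 points, and its summed error differed by 7.998 points (limma adjusted p = 0.155). In WT, Arg-ACG-1-2 had the highest deletion rate of the 48 references at 58, 45.2%, but not at 54 or 55. The other called site was Lys-TTT-3-3 at 64, in the 3' strand, with deletions of 7.23% and 5.50% in KO and 3.20% and 3.52% in WT, higher by 3.01 points (limma adjusted p = 0.0297). Both deletion calls were lost in 3 of the 4 fits that left out a library, including those without KO replicate 1 and without WT replicate 1, where adjusted p ran from 0.150 to 0.396, and when libraries were centred (9.40 points at 55 of Arg-ACG-1-2 and 2.43 points at 64 of Lys-TTT-3-3). The call at 64 of Lys-TTT-3-3 was also lost without the trend setting (limma adjusted p = 0.146).

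The largest increases without overlap that missed the test were in the loop. Val-TAC-1-1 at 57 had 57.5% and 60.7% in KO and 46.6% and 52.6% in WT, higher by 9.48 points (limma adjusted p = 0.237), mostly mismatch (8.10 points). Its neighbour 58 was higher by 7.68 points (limma adjusted p = 0.285), the largest difference at that position. At 54, Pro-CGG-2-1 had 73.1% and 74.6% in KO and 63.9% and 66.7% in WT, a difference of 8.56 points (limma adjusted p = 0.156). Pro-TGG-3-3 had 72.3% and 75.1% in KO and 64.1% and 67.1% in WT, a difference of 8.07 points (limma adjusted p = 0.202), and the remaining proline reference, Pro-AGG-1-1, differed by 6.95 points. In each of the 3 proline references mismatch and deletion at 54 were higher in KO and insertion was lower. The size of these differences depended on the WT library left out. Without WT replicate 2 they were 12.5 and 10.01 points at 57 and 58 of Val-TAC-1-1. At 54 they were 9.96 points in Pro-CGG-2-1 and 9.58 in Pro-TGG-3-3. Without WT replicate 1 they were 6.46, 5.34, 7.15 and 6.56 points in the same order. The summed error at 55 of Arg-ACG-1-2 differed by 9.81 points without WT replicate 2 and by 6.19 without WT replicate 1. Leaving out a KO library instead gave values between these at each site.

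The largest decreases without overlap were smaller than the largest increases, and none passed the test. Gly-TCC-2-5 at 54 had 44.2% and 44.7% in KO and 49.1% and 48.7% in WT, lower by 4.47 points (limma adjusted p = 0.560). Ser-CGA-2-1 at 54 had 49.4% and 49.9% in KO and 52.2% and 54.2% in WT, a difference of -3.56 points, and Glu-TTC-1-1 at 58, with the values above, differed by -3.25 points. Lys-TTT-3-3 at 55 had 77.6% and 77.7% in KO and 80.3% and 80.8% in WT, a difference of -2.88 points made of -5.73 points of mismatch and 2.76 points of deletion. Arg-ACG-1-2 at 49 had 19.1% and 20.6% in KO and 23.8% and 21.3% in WT, a difference of -2.71 points, opposite to its positions 54 and 55. The remaining extremes at single positions were Ile-AAT-8-1 at 49 (6.31 points), Lys-TTT-3-3 at 50 (4.85 points), Tyr-GTA-2-1 at 50 (-2.19 points) and Ile-GAT-1-1 at 58 (-3.66 points), none past the test.

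**Figure D5:**
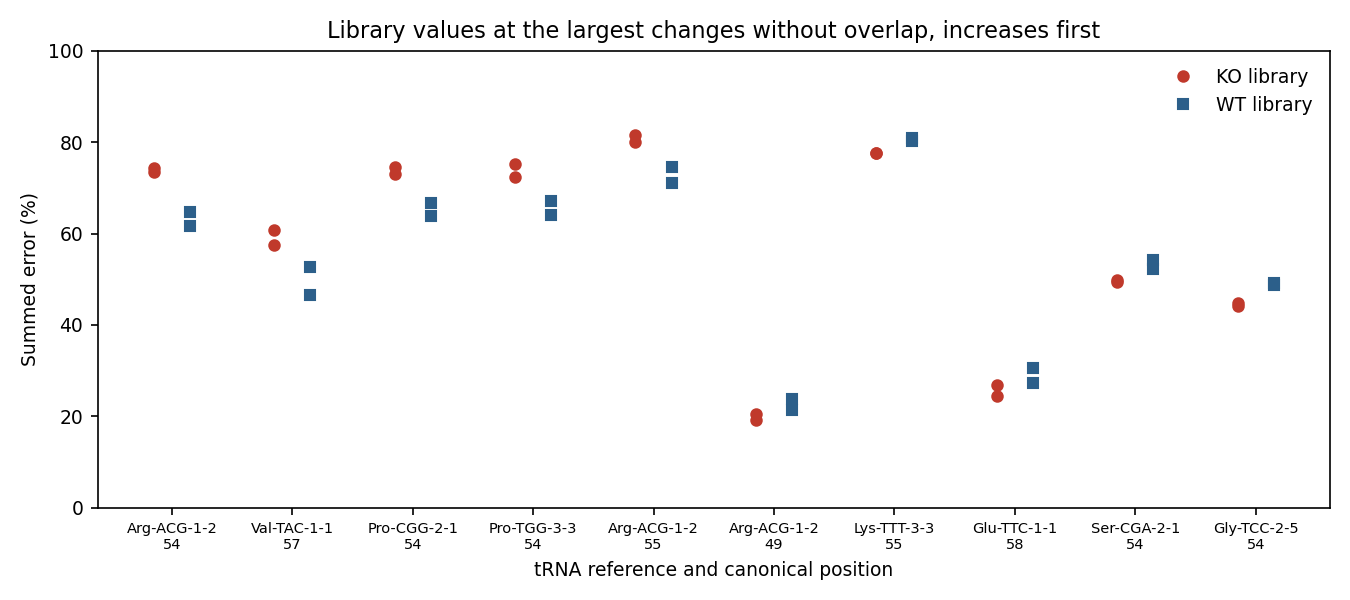
Summed error (%) in each KO library (red circles) and WT library (blue squares) at the 10 sites with the largest changes without overlap, the 5 increases on the left and the 5 decreases on the right. The gap between genotypes is widest at 54 of Arg-ACG-1-2, the site among these 10 that passed the limma test on the summed error.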

How the data were processed

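Error rates were deposited as a fraction of reads, per the file headers and the labels, in 12 sheets (mismatch, deletion and insertion for each of 4 libraries), with 48 tRNA references and a further sheet that numbers their nucleotides. BWA, SAMtools and bedtools were used per the submitters' processing notes. Not given in the sources used here are their versions, the base caller, read filters, build and depth, so no counting interval is given.

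Fractions were turned into percent, and the 3 kinds were added to a summed error. The arcsine square root was fitted over all 3621 numbered positions in R 4.3.3 by limma 3.58.1 (lmFit, then eBayes with its trend and robust options). Benjamini-Hochberg adjustment and a threshold of 0.05 were used. The fit was first run on simulated data with independent noise at each site. That run cannot show how often false calls arise where the sites of a library share its overall error. Library means were compared by exact permutation in Python 3.11.15 with numpy 2.4.6 and pandas 2.3.3. Sites named are those past the threshold, the 3 highest and 3 lowest WT references and the largest change in each direction at 49, 50, 54, 55 and 58, the 5 highest sites elsewhere, and the 5 largest changes without overlap in each direction. Others were chosen after their values were seen. The members and lists were chosen with earlier results of these data known. Alternatives were another transform, filters, no trend, centring, the tRNA ends left out (1 to 5 and 70 to 76), a replicate block and each library left out.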

Additional observations from a re-analysis of the deposited data

How the results depend on the processing

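Of the alternatives run for differences by position, 51 kept their direction and 3 did not. The 3 were 55 and 58 without WT replicate 1 (-0.261 and -1.41 points) and 58 when medians were compared (-0.485 points). Without a library the difference at 55 ran up to 1.15 points and that at 58 up to 2.98. Many of the 51 could not have turned, so their count does not measure stability. The replicate block leaves a difference by position unchanged. At 49, 50, 54 and the other positions both KO libraries lay above both WT libraries, so leaving out 1 library could not reverse the direction. Without a library the WT medians ran from 13.03 to 13.1% at 49, from 51.7 to 52.7% at 54 and from 72.2 to 74.9% at 55. As means over references the WT levels were 18.7% at 49, 21.98% at 50, 66.4% at 58 and 25.04% at the other T-arm positions. Without insertions they were 9.78% at 49, 16.2% at 50, 46.1% at 54 and 16.9% at the others, and relative to each library's median they were -11.8, -5.68, 27.6, 47.9, 46.01 and -6.31 points at 49, 50, 54, 55, 58 and the others. Without Asn-GTT-2-1 and Asp-GTC-2-6, an alternative chosen after seeing the data, 49 was at 12.8%. Sites called higher in the summed error numbered 0 after centring and 1 to 11 without a library. Sites called higher in deletion numbered 1 without the trend (Arg-ACG-1-2 at 55), 0 after centring, 7 without the tRNA ends (fewer positions tested) and 0 to 3 without a library. Without a library 0 to 1 were called lower in deletion. The labels do not say whether equal replicate numbers mark a pair. The deviations of same-numbered libraries correlated at -0.280 over the T arm. This compares a single pair of libraries per genotype and cannot settle the pairing, so the replicate block stands only here. The block gave 0 sites higher in the summed error and 3 in deletion. Limma adjusted p with it was 0.107 at 54 of Arg-ACG-1-2, 0.0102 for deletion at its 55 and 0.00571 for deletion at 64 of Lys-TTT-3-3. With numbers crossed, added after seeing the data, 10 were higher in the summed error, 0 in deletion and 2 in insertion. Where no value shows it, the cause was not tested. With 2 libraries against 2 no exact test can reach 0.05, and depth being unknown, sites with few reads could not be set apart.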
